A study of Rattus norvegicus with 24 samples.

Results

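Messenger RNA of 10 genes known as targets of p53 or as markers of DNA damage was measured in the frontal cortex of rats that had inhaled tungsten particles. The 10 genes, Cdkn1a, Mdm2, Ccng1, Gadd45a, Gadd45b, Gadd45g, Sesn1, Sesn2, Tp53inp1 and Btg2, were chosen by name among the 32883 reference genes of the deposited tables, and each name matched 1 Ensembl gene identifier. The animals were adult male Sprague-Dawley rats, and all groups were part of the same inhalation experiment. The Control group was labelled 0 mg/m3, the Low group 5 mg/m3 and the High group 80 mg/m3, with 8 libraries each, numbered 49 to 56, 57 to 64 and 65 to 72. The study's methods place the sampling on the day after exposure and describe tissue biopsies, whereas the extraction label speaks of cell lines of this brain region. The sources used here give no ages of the animals, and p-values measure the spread between these 24 libraries.

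p53 is a transcription factor that is kept low by the ubiquitin ligase Mdm2 and accumulates when DNA is broken or the cell is stressed. It then binds to paired copies of a 10-base half-site and switches on genes that stop the cell cycle, repair DNA, restrain growth or start cell death. Several of these genes also answer to other signals: in neurons Btg2, Gadd45b and Gadd45g belong to the genes that synaptic activity induces, and Sesn2 and Gadd45a respond to nutrient and protein-folding stress.

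Promoter sequence is shown for the 5 genes whose window held a p53 half-site or a cyclic AMP response element, because the 10 genes were grouped for a shared regulator. RefSeq windows of 300 bases (250 before and 50 after the start of transcription, build GRCr8) were found for 9 of the 10 genes. The p53 half-site consensus was present in the windows of Cdkn1a, Gadd45a, Ccng1 and Sesn1, which is 4 of 9, against 7.98% of the 33469 windows of all genes. Capitals mark the match, and each stretch runs 5′ to 3′ on the strand of the gene.
Cdkn1a: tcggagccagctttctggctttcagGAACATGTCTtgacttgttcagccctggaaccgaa
Gadd45a: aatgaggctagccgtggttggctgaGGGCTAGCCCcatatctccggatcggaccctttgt
Ccng1: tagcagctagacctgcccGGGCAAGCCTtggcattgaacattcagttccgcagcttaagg
Sesn1: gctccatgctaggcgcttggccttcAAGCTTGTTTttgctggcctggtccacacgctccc
Btg2: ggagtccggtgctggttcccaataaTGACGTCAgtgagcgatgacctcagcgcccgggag
The Cdkn1a stretch is chr20:7150706-7150765 on the plus strand, and its half-site began 201 bases before the start. The Sesn1 stretch is chr20:46948522-46948581 on the plus strand, with the match 172 bases before the start. The Gadd45a stretch is chr4:97486813-97486872 on the minus strand, with the match 48 bases before the start. The Ccng1 stretch is chr10:25685067-25685126 on the minus strand, with the match 232 bases before the start. The Btg2 stretch is chr13:48087857-48087916 on the minus strand, and its cyclic AMP response element, TGACGTCA, began 201 bases before the start. TGACGTCA was in 1.83% of all windows and in no other of the 9. An exact full p53 site, which is a pair of exact half-sites up to 13 bases apart, was in 0.0598% of all windows and in none of the 9. Only exact matches to the consensus were counted, so half-sites with a mismatched base were neither counted nor marked. The 10 bases straight after the marked match of Cdkn1a were not an exact match, and whether they form a site with it was not tested. The AP-1 motif TGACTCA was in 4.63% of all windows and in none of the 9. All motifs were searched on both strands, and none of the matches shown overlapped another. These are descriptions of letters in a short window and not of binding.

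The level of a gene is given as scaled coverage, the mean read depth per base of the gene divided by the sum over all reference genes of the library and multiplied by 1000000. It is a value per base, like the deposited FPKM per kilobase, and the order of the genes is given on this scale, with the pairs that turn on FPKM. In the Control group Ccng1, which encodes the cyclin G1 protein that recruits a phosphatase to Mdm2, stood highest at 124 ± 20.04 (SD, n = 8), above 93.0% of the 15644 genes tested. Tp53inp1, which encodes a stress-induced protein of autophagy and cell death, stood lowest at 5.47 ± 1.61 (SD, n = 8), above 25.6% of the genes tested. Between them, Btg2 at 26.7 ± 10.3, Sesn1 at 23.0 ± 2.65, Mdm2 at 20.7 ± 1.89, Gadd45g at 20.4 ± 5.28, Gadd45a at 16.3 ± 1.83 and Gadd45b at 15.6 ± 3.27 formed an order in which the SD ranges of neighbours overlapped. Sesn2 at 9.62 ± 0.926 and Cdkn1a at 8.99 ± 2.40 came next, and the ranges overlapped from Sesn2 to Cdkn1a and from Cdkn1a to Tp53inp1 but not from Gadd45b to Sesn2. On the FPKM scale the order of 2 neighbouring pairs turned: Cdkn1a at 4.76 ± 1.07 stood above Sesn2 at 3.27 ± 0.190 (SD, n = 8), and Mdm2 at 8.23 ± 0.678 above Sesn1 at 7.84 ± 0.569. Relative to the median gene of the library, the ratio of coverage to FPKM had a Control median of 0.638 for Cdkn1a and 0.853 for Mdm2, whereas it was 0.988 for Ccng1 and 1.0 for the other 7 genes. Btg2 varied most between Control animals, with a coefficient of variation of 38.5%, whereas Mdm2 varied by 9.13% and Sesn2 by 9.63%.

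**Figure D1:**
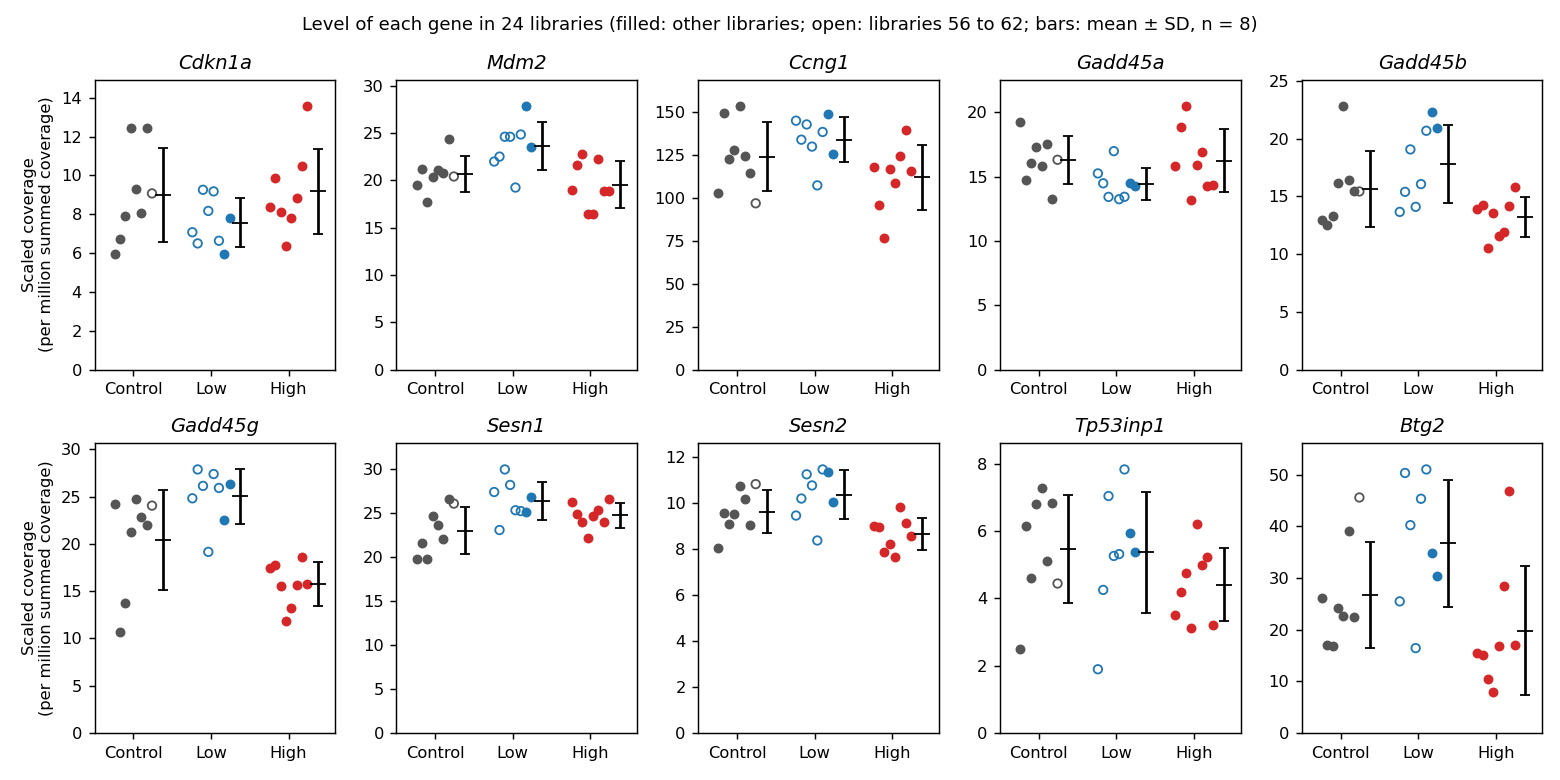
Scaled coverage (linear axis from 0) of each of the 10 genes in the 8 Control, 8 Low and 8 High libraries. Each point is a library, open points are libraries 56 to 62 and black bars are the mean ± SD. For Gadd45g the Low values, from 19.1 to 27.9, all lie above the High values, from 11.8 to 18.6.

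Before the groups are compared, 2 features of the deposited tables matter for every value of the Low group. The 8 Low tables list reference genes only, whereas the Control and High tables also list 46334 to 159573 assembled loci per library, so for the Low group the exposure and the kind of table cannot be told apart. High against Control is a comparison within tables that list assembled loci. Control library 56 stood apart there, with 159573 assembled loci against 46334 to 66427 in the other Control and High libraries. In addition, the summed scaled coverage of 8 minus-strand mitochondrial genes was 5449 to 8103 in libraries 56 to 62, which are 1 Control and 6 Low libraries, and 84.9 to 155 in the other 17. The Control library 56 also held assembled loci on the opposite strand at 9 of the 10 genes, against at most 2 of the 10 in any other library. Excitatory neuron markers of cortex were present in every library, with a summed level of 749.7 to 1927, and striatal markers ranged from 205 to 1456, with the highest sum in High library 65.

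None of the 10 genes differed between High and Control at an adjusted p under 0.05 (limma, two-sided, Benjamini-Hochberg over all 15644 genes tested), where percent called was 0.0% of all genes. At an unadjusted p under 0.05 the test gave 1 of the 10 genes, Gadd45g, and 330 of all genes (2.11%), and an exact Wilcoxon test also called none after adjustment. The adjusted p was 0.999 for each of the 10. The log2 fold change was below 0 for 8 of the 10 genes and for 64.0% of all genes tested, with medians of -0.14 and -0.03. The Mdm2 interval ran from -0.24 to 0.08 and that of Gadd45a from -0.18 to 0.16. The interval of Cdkn1a, the cyclin-dependent kinase inhibitor p21 and a much used readout of p53, ran from -0.25 to 0.32. For these 3 genes a 2-fold change at the high concentration lies outside the 95% interval, whereas the Btg2 interval, from -1.12 to 0.06, includes a 2-fold lower level.

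In Low against Control, again 0 of the 10 genes passed the threshold, whereas 6.11% of all genes tested did (956 of 15644). The log2 fold change was above 0 for 7 of the 10, near the share of 66.5% over all genes tested, with medians of 0.15 and 0.06. Unadjusted p was under 0.05 for Sesn1, Mdm2 and Gadd45g, which is 3 of the 10 against 18.4% of all genes tested, and the exact Wilcoxon test also called 0 of the 10 after adjustment, against 2.38% of all genes, and 4 of the 10 before it, against 17.4%.

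In Low against High, 5 of the 10 genes passed, all of them higher in Low: Gadd45g, Btg2, Gadd45b, Mdm2 and Sesn2. Over all genes tested 11.7% passed in this comparison in either direction and 5.3% were higher in Low. The median log2 fold change was 0.25 for the 10 genes and 0.09 for all genes tested. The number that passed changed when single libraries were left out, as given below for each of the 5 genes.

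**Figure D2:**
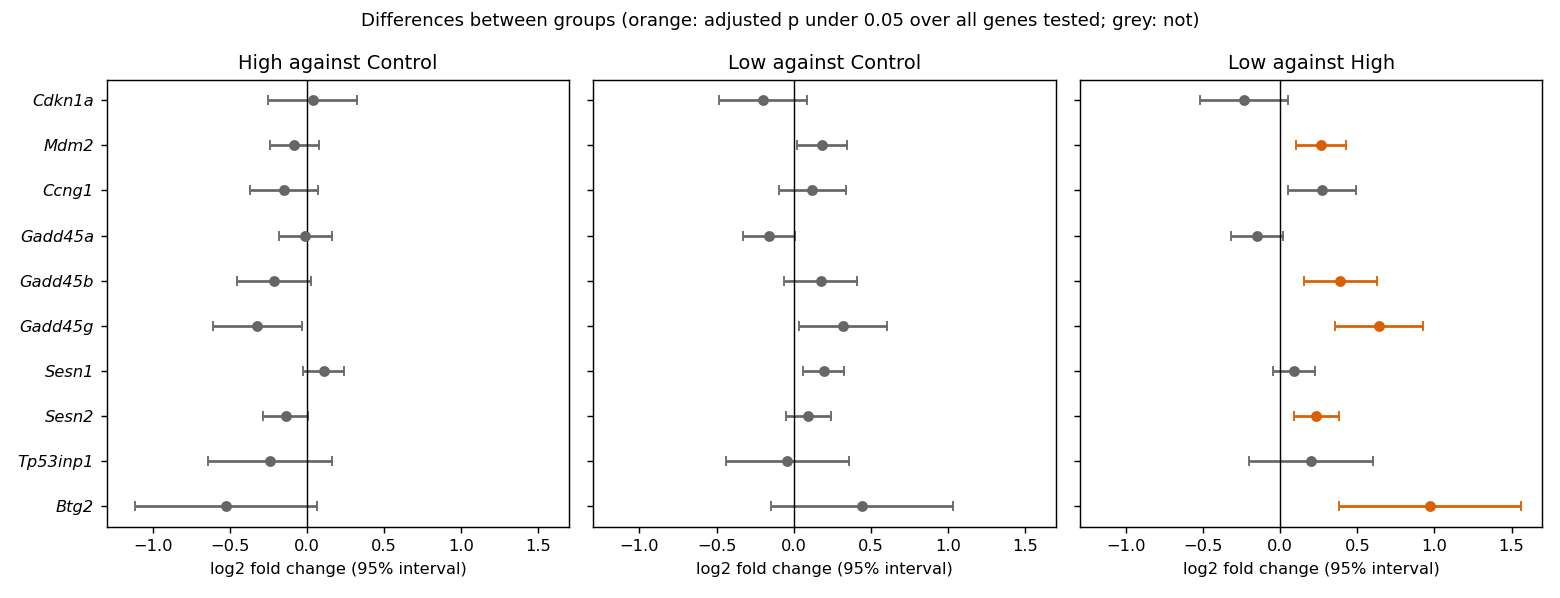
Log2 fold change with its 95% interval (horizontal axis) of each of the 10 genes (vertical axis) in the 3 comparisons. Orange marks an adjusted p under 0.05 over all 15644 genes tested, which 5 genes reached in Low against High and none reached in the comparisons with Control.

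The Gadd45 genes encode small proteins that bind stress kinases, cyclin complexes and the DNA repair machinery. Gadd45g (chromosome 17, 13391467 to 13393243, minus strand in the tables) ranged from 10.7 to 24.7 in Control with a median of 22.4, from 19.1 to 27.9 in Low with a median of 26.0, and from 11.8 to 18.6 in High with a median of 15.7. Every Low library lay above every High library, which holds for 0.262% of all genes tested, while the Control libraries spanned both because libraries 50 and 51 stood at 10.7 and 13.7. Gadd45g was 1.56-fold higher in Low than in High, a log2 fold change of 0.64 ± 0.14 (SE) with an adjusted p of 0.00315 by limma. The call held without any 1 of the 16 Low and High libraries, with values of 0.59 to 0.69. The call was lost with no scaling and with libraries 56 to 62 as a covariate or left out. Against Control the log2 fold change was 0.32 in Low (adjusted p = 0.207, limma) and -0.32 in High (adjusted p = 0.999, limma).

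Gadd45b (chromosome 7, 11646269 to 11648322, minus strand) is the relative best known as an activity-induced gene that promotes removal of DNA methylation in neurons. Its level ran from 12.5 to 22.8 in Control with a median of 15.5, from 13.7 to 22.3 in Low with a median of 17.6, and from 10.5 to 15.8 in High with a median of 13.7. The lowest Low libraries overlapped the High libraries, and 7 of 8 Low libraries stood above the High median. The log2 fold change between Low and High was 0.39 ± 0.12 (SE), with an adjusted p of 0.0287 by limma. The call held in 10 of 16 fits with 1 library left out, with values of 0.34 to 0.44, and was lost without Low library 59, 62, 63 or 64 or High library 67 or 69. Gadd45b was the one gene of the 10 that passed with libraries 56 to 62 left out, where 2 Low libraries remained at 20.9 and 22.3.

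Gadd45a (chromosome 4, 97782512 to 97784842, minus strand), the family member most directly tied to p53, was not among the genes called. It ran from 13.3 to 19.3 in Control with a median of 16.2, from 13.3 to 17.0 in Low with a median of 14.4, and from 13.2 to 20.5 in High with a median of 15.9. The groups overlapped, and 1 of 8 Low libraries stood above the Control median and 1 of 8 above the High median. In Low against Control the exact Wilcoxon test gave an unadjusted p of 0.0379 and an adjusted p of 0.259. The log2 fold change was -0.15 in Low against High (interval -0.32 to 0.02, adjusted p = 0.233, limma) and -0.16 in Low against Control (adjusted p = 0.302, limma).

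Btg2 (chromosome 13, 50913180 to 50916982, minus strand) encodes an antiproliferative protein that is also an immediate early gene product. It varied most of the 10 genes, from 16.8 to 45.6 in Control with a median of 23.4, from 16.4 to 51.0 in Low with a median of 37.5, and from 7.97 to 46.8 in High with a median of 16.2. The groups overlapped, since High library 71 at 46.8 exceeded most Low libraries and the highest Control value, 45.6, came from library 56. All 8 Low libraries stood above the High median. Btg2 was 1.96-fold higher in Low than in High, a log2 fold change of 0.97 ± 0.29 (SE) with an adjusted p of 0.0282 by limma. The values with 1 library left out were 0.82 to 1.17, and the call held in 10 of 16 such fits and was lost without Low library 58, 59 or 62 or High library 65, 67 or 68. Against Control, Btg2 gave 0.44 in Low (adjusted p = 0.429, limma) and -0.53 in High (adjusted p = 0.999, limma).

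Of the genes that regulate p53 itself, Mdm2 (chromosome 7, 60719066 to 60743328, minus strand) ran from 17.7 to 24.4 in Control with a median of 20.6, from 19.2 to 27.8 in Low with a median of 24.1, and from 16.4 to 22.8 in High with a median of 19.0. All 8 Low libraries stood above the High median, though the ranges overlapped. The log2 fold change between Low and High was 0.27 ± 0.08 (SE), with an adjusted p of 0.0265 by limma, and the gene missed the threshold against Control (0.18, adjusted p = 0.194, limma). Its call between Low and High held in 10 of 16 fits with 1 library left out (0.23 to 0.30) and was lost without Low library 59, 60, 62 or 63 or High library 68 or 69. Ccng1 (chromosome 10, 25903911 to 25910325, minus strand) ran from 96.8 to 153 in Control with a median of 123, from 107 to 149 in Low with a median of 136, and from 76.6 to 139 in High with a median of 116. Its log2 fold change between Low and High was as large as that of Mdm2, at 0.27, but its SE of 0.11 left it at an adjusted p of 0.0937 by limma.

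The sestrins Sesn1 and Sesn2 encode proteins that restrain the growth kinase complex mTORC1. Sesn2 (chromosome 5, 150684133 to 150704117, minus strand) ran from 8.05 to 10.8 in Control with a median of 9.54, from 8.36 to 11.5 in Low with a median of 10.5, and from 7.66 to 9.81 in High with a median of 8.76. The log2 fold change between Low and High was 0.23 ± 0.07 (SE), with an adjusted p of 0.0323 by limma, and 7 of 8 Low libraries stood above the High median. The Sesn2 call held in 8 of 16 fits with 1 library left out (0.21 to 0.27) and was lost without Low library 59, 60, 62 or 63 or High library 67, 68, 69 or 72. Sesn1 (chromosome 20, 46667121 to 46758305, plus strand) ran from 19.8 to 26.6 in Control with a median of 22.9, from 23.1 to 30.0 in Low with a median of 26.1, and from 22.2 to 26.6 in High with a median of 24.8. It came closest to the threshold in Low against Control, at 0.19 ± 0.07 (SE) with an adjusted p of 0.0844 by limma, and all 8 Low libraries stood above the Control median. Sesn1 passed there when Control library 55 or 56 was left out. Its level is less certain than the others, because a reference gene on the same strand, AABR07045411.1, overlaps it and the assembled locus with the highest coverage reached a median of only 33.1% of its reference coverage in Control.

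Cdkn1a (chromosome 20, 6351458 to 6358864, plus strand) ran from 5.94 to 12.5 in Control with a median of 8.56, from 5.93 to 9.26 in Low with a median of 7.45, and from 6.38 to 13.6 in High with a median of 8.61. The groups overlapped, and 2 of 8 Low libraries stood above the Control median. The log2 fold change was 0.04 in High against Control and -0.20 in Low against Control (adjusted p = 0.468, limma). Tp53inp1 (chromosome 5, 24410863 to 24416888, plus strand) ran from 2.50 to 7.28 in Control with a median of 5.63, from 1.89 to 7.83 in Low with a median of 5.35, and from 3.12 to 6.21 in High with a median of 4.47. These were the widest intervals beside Btg2, -0.64 to 0.16 in High against Control and -0.44 to 0.36 in Low against Control.

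The calls in Low against High depended on single libraries. The number of the 10 genes that passed was 5 in the full data. It was 1 without Low library 59 or 62, 2 without Low library 63 or High library 67, 68 or 69, and 3 without Low library 60. In the other fits with 1 Low or High library left out it was 4 to 6. Over all genes tested 1266 to 1727 passed in the former fits and 1441 to 2479 in the latter, against 1828 of 15644 in the full data. The number of the 10 genes was 1 when libraries 56 to 62 were left out, a setting chosen after seeing the data, and 0 when they were a covariate. Over all genes tested 354 of 15669 and 354 of 15644 passed in these settings. The exact Wilcoxon test called 1 of the 10, Gadd45g, against 7.33% of all genes tested.

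Immediate early genes were also higher in Low than in High. Of 10 activity-induced early genes, such as Fos, Arc and Npas4, 9 passed in Low against High, all higher in Low, with Fosb the exception. Over all genes tested 11.7% passed there and 5.3% were higher in Low. The median log2 fold change of the 10 early genes was 1.101. Against Control, where 6.11% of all genes tested passed in Low and 0.0% in High, Junb alone of these early genes passed in Low and none in High. Their summed scaled coverage ran from 451 to 1081 in Low, from 363 to 720 in Control and from 156 to 656 in High, and it was lowest in High library 67. Over the 24 libraries, with group means removed, the mean log2 level of this list correlated with Gadd45b at r = 0.79 (rho = 0.85), with Btg2 at r = 0.60 (rho = 0.59), with Sesn2 at r = 0.53, with Gadd45g at r = 0.41 and with Mdm2 at r = 0.07. Of the genes that were not called, Cdkn1a stood at r = 0.43, Ccng1 at 0.43, Tp53inp1 at 0.39, Sesn1 at 0.27 and Gadd45a at -0.35. The points share the scaling of their library, and the part of these early genes in the differences of the 10 genes was not tested. Of 5 glucocorticoid-induced genes 1 passed in Low against High, against 11.7% of all genes tested. Of the markers of neurons, glia, endothelium, blood, choroid plexus and striatum none passed in any comparison.

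The other genes of the pathway were taken from 4 lists with 81 names, of which 75 were found and 68 tested. In High against Control 0 of the 68 passed by limma, as did 0.0% of all genes tested. An unadjusted p under 0.05 was found for 4 of the 68, against 2.11% of all genes tested. These were Hipk2, Dyrk2, Tob1 and Tp53inp2, all below 0. The median log2 fold change of the 68 was -0.03, the same as over all genes. The largest values below 0 there were those of the p53 kinase Hipk2 (-0.44 ± 0.15 SE), Mdm4 (-0.32 ± 0.23 SE) and the cell cycle inhibitor Rprm (-0.29 ± 0.16 SE). The largest above 0 were those of Perp (0.23 ± 0.16 SE), the DNA repair gene Ddb2 (0.10 ± 0.12 SE) and the cyclin gene Ccnd1 (0.087 ± 0.11 SE).

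In Low against Control 2 of the 68 passed (2.94%), against 6.11% of all genes tested (956 of 15644). Trim24, a ubiquitin ligase for p53, was lower in Low (-0.34, adjusted p = 0.0352, limma), and Rnf168, a ubiquitin ligase at DNA breaks, was higher (0.26, adjusted p = 0.0311, limma). Neither passed when only the 2 groups were fitted, nor with libraries 56 to 62 as a covariate or left out. In each of these fits 0 of the list genes passed. Over all genes tested 535 of 15597 passed with only the 2 groups, 361 of 15644 with the covariate and 344 of 15669 with these libraries left out. Trim24 turned to 0.12 on the FPKM scale.

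In Low against High 9 of the 68 passed (13.2%), against 11.7% of all genes tested in either direction. With libraries 56 to 62 as a covariate 3 list genes passed, as did 354 of all 15644 genes tested. Of the 9, 8 were higher in Low, and the median log2 fold change was 0.15 against 0.09 over all genes. Of the p53 regulators 3 of 15 passed, with Dyrk2 (0.52) and Crebbp (0.33) higher in Low and Trim24 (-0.34) lower. Of the DNA damage sensors and kinases 1 of 18 passed, Rnf168 (0.30). Of the other p53 targets 2 of 27 passed, the polo-like kinases Plk2 (0.41) and Plk3 (0.53), which are also induced by activity in neurons. Of 8 relatives of the 10 genes 3 passed, Ccng2 (0.34), Tob1 (0.45) and Tp53inp2 (0.29), all higher in Low, against 5.3% of all genes tested.

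**Figure D3:**
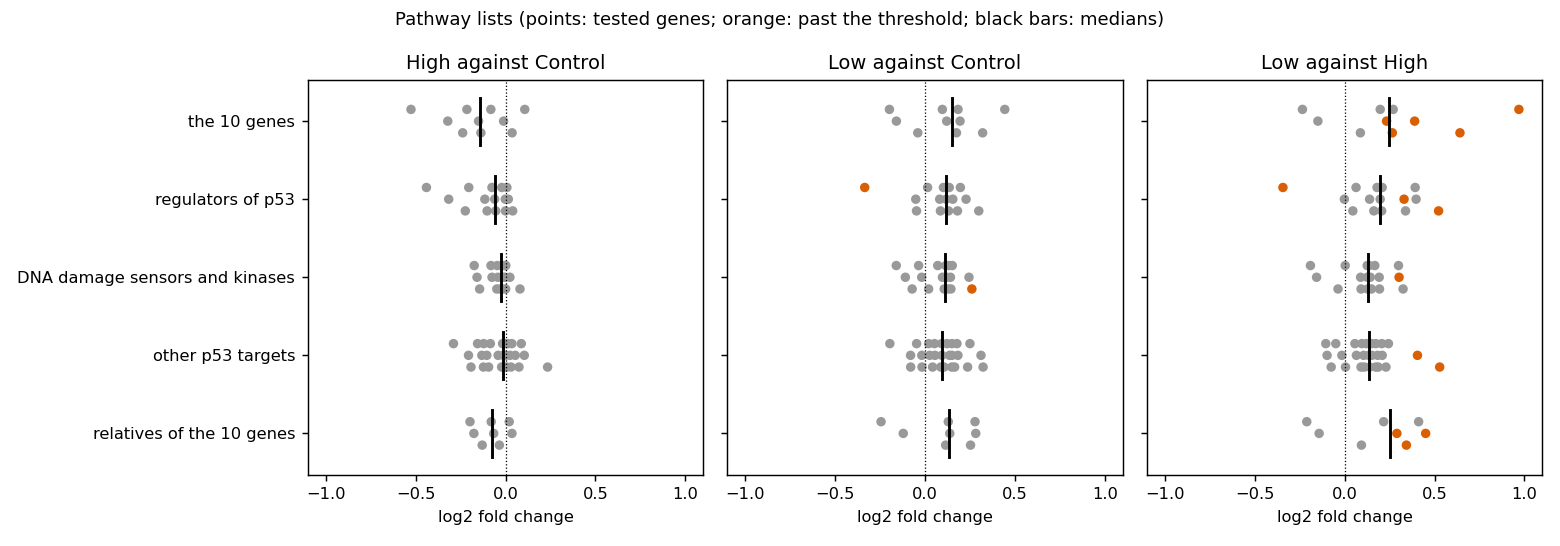
Log2 fold change (horizontal axis) of the 10 genes and of the tested genes of 4 pathway lists (vertical axis) in the 3 comparisons. Points are genes, orange marks those past the threshold and black bars are medians, which for the 10 genes were -0.14 in High against Control and 0.25 in Low against High.

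Most pairs of the 10 genes were weakly correlated within groups. Of the 45 pairs, 34 had a positive Pearson's r over the 24 libraries with group means removed, the median r was 0.21 and the range -0.46 to 0.72. After Benjamini-Hochberg adjustment over the 45 pairs, 1 pair passed by both r and rho in permutations within groups, Cdkn1a with Sesn1, at r = 0.72 (adjusted permutation p = 0.0121) and rho = 0.76 (adjusted permutation p = 0.0045). Its r was 0.71 without the 2 libraries farthest from the Cdkn1a median, and it was 0.82 within Control, 0.63 within Low and 0.68 within High. Gadd45g with Btg2 passed by r only, at r = 0.60 (adjusted permutation p = 0.0223) and rho = 0.57 (adjusted permutation p = 0.076), and its r without the 2 farthest libraries was 0.56. The lowest r was -0.46, between Ccng1 and Gadd45a, and it was -0.13 without the 2 libraries farthest from the Ccng1 median. With another scaling (median of ratios) no pair passed by both measures.

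**Figure D4:**
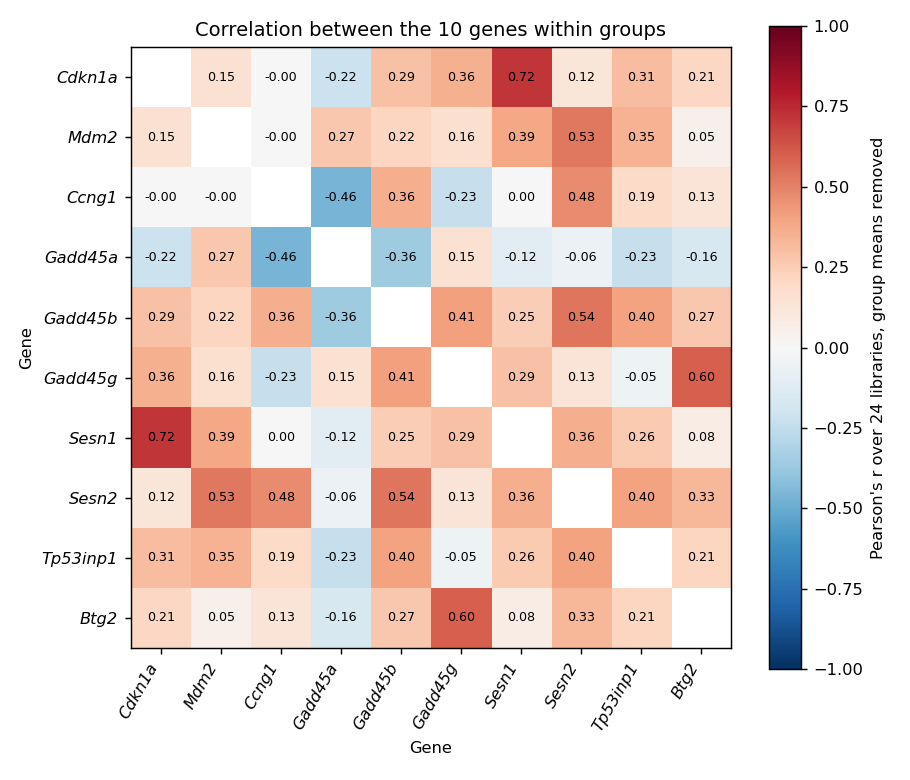
Pearson's r between each pair of the 10 genes over 24 libraries after removal of the group means, with colour from -1 to 1. Cdkn1a with Sesn1, at 0.72, is the highest of the 45 pairs.

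The genes whose level was most like each of the 10 across the 24 libraries, by Pearson's r with group means removed, differed from gene to gene. For Btg2 they were the immediate early genes Ccn1 (r = 0.94, rho = 0.93) and Ier2 (r = 0.87, rho = 0.83). For Gadd45b they were Klf10 (r = 0.83, rho = 0.82) and Fam43a (r = 0.82, rho = 0.78). For Cdkn1a they were Slc10a6 (r = 0.80, rho = 0.68) and Bcl6 (r = 0.75, rho = 0.69), and for Ccng1 the neuronal gene Brinp1 (r = 0.94, rho = 0.91) and Dmtn (r = 0.92, rho = 0.93). Mdm2 was most like Inpp5f (r = 0.86, rho = 0.86) and Mtus1 (r = 0.86, rho = 0.88), and Sesn2 most like Lgalsl (r = 0.88, rho = 0.90) and Entpd4 (r = 0.88, rho = 0.89). Sesn1 was most like Pa2g4 (r = 0.80, rho = 0.84) and Tacc3 (r = 0.80, rho = 0.79), and Tp53inp1 most like Zfp319 (r = 0.91, rho = 0.78) and Polb (r = 0.90, rho = 0.83). Gadd45g was most like Ddx55 (r = 0.78, rho = 0.61) and Pced1b (r = 0.77, rho = 0.65), and Gadd45a most like Pth1r (r = 0.73, rho = 0.68) and Mid1ip1 (r = 0.70, rho = 0.60). None of the 10 genes was among the most similar genes of another.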

How the data were processed

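Polyadenylated RNA from the frontal cortex was sequenced from 24 libraries prepared with a stranded kit. Per the labels, the authors used FastQC, Trimmomatic, TopHat2 and StringTie with the mRatBN7.2 build. The deposited tables do not bear that build out, because positions on chromosome 1 reach 282724300, past the last RefSeq gene of GRCr8 at 270492571, so positions of genes are printed as the tables give them, with the build unclear, and only promoter positions are GRCr8. The authors deposited coverage (a signal, the mean read depth per base), FPKM and TPM per gene. The deposited TPM sums to 1000000 in each Low table and to 1698062 to 1981151 in the Control and High tables, which list assembled loci beside the reference genes, so there it was treated as a score. 1 gene of the pathway lists is not reported here. Read counts are not used here, so the depth in reads of each library is unknown. The paper states a depth per sample, limited for cost reasons, and describes it as a challenge for detecting low expression. Summed coverage of reference genes was 1639554 to 3069530 per library. No columns of authors' comparisons were used.

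Coverage was summed per Ensembl gene identifier, divided by the library's sum over reference genes and multiplied by 1000000. A gene was tested where its mean over the libraries reached 1 (15644 of 32883, all 10 genes among them). log2(value + 1) was fitted with limma 3.58.1 in R 4.3.3 (trend and robust, 3 groups in 1 fit), with a two-sided test, Benjamini-Hochberg adjustment and a threshold of 0.05. Fold changes are on this log2(value + 1) scale, which understates low genes. Correlations between the 10 genes used log2 values centred on group means and 100000 permutations within groups (scipy, Python). The fitting script was tested on simulated data. Named genes were the 10 genes, list genes past the threshold, the 3 largest rises and falls among list genes in High against Control and the 2 genes most like each of the 10. The 10 genes and the lists were chosen with earlier results of these data known. Alternatives were other pseudocounts, filters, scalings, the FPKM and TPM columns, fits of only the groups compared, an exact Wilcoxon test, libraries 56 to 62 as a covariate or left out, and each library left out in turn. Promoters came from RefSeq and matched by symbol, and no protein sequence was used here.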

Additional observations from a re-analysis of the deposited data

Results flagged for a closer look

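Gadd45b in Control library 53 stood at 22.8, apart from the other 7 Control libraries at 12.5 to 16.4, and it was the only one of 30 sets of 8 values with such an extreme sample, where chance would give about 1.5. Activity-induced early genes were also highest among Control libraries there, with a summed scaled coverage of 720. None of the 10 genes passed against Control in either group. The Low and High groups differed by a test for 5 of the 10, against 11.7% of all genes tested. The log2 difference (Low minus High, limma) was 0.64 for Gadd45g, 0.97 for Btg2, 0.39 for Gadd45b, 0.27 for Mdm2 and 0.23 for Sesn2. The Low and High tables are of different kinds, and their part in these differences cannot be told apart from that of the exposure.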

How the results depend on the processing

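No paired analysis was possible because the library numbers differ between the groups. The count of the 10 genes past the threshold in Low against Control (0) became 2 with the sum without mitochondrial genes. There 1759 of all 16241 genes tested passed. It became 8 on the FPKM column, where 12393 of 13816 genes passed, and 3 on the TPM column, where 3952 of 15587 passed. With single Control or Low libraries left out it ranged from 0 to 1, where 676 to 1224 of all genes tested passed. In Low against High the count (5) became 1 with no filter (1463 of all 32883 genes passed) and 0 with no scaling (1370 of 17154 genes). It became 2 with median-of-ratios scaling (1656 of 15632 genes) and 9 on the FPKM column (12410 of 13816 genes). With libraries 56 to 62 as a covariate it was 0 (354 of 15644 genes), and with them left out 1 (354 of 15669 genes). By the exact Wilcoxon test it was 1 (1147 of 15644 genes), and with single Low or High libraries left out it ranged from 1 to 6 (1266 to 2479 genes). In High against Control it was 0 in every alternative run. Of the other list genes, Low against Control (2) gave 1 with no filter, 0 with no scaling, 8 with the sum without mitochondrial genes, 61 on FPKM, 22 on TPM, 0 with only the 2 groups compared, and 0 with libraries 56 to 62 as a covariate or left out. Over all genes tested 824 of 32883 passed in Low against Control with no filter and 761 of 17154 with no scaling. With only the 2 groups 535 of 15597 passed, with the covariate 361 of 15644 and with libraries 56 to 62 left out 344 of 15669. Low against High (9) gave 1, 60 and 18 with no scaling, FPKM and TPM, and libraries 56 to 62 gave 3 as a covariate and 2 left out. Over all genes tested 3927 of 15587 passed there on TPM, and the share on FPKM is given above. The pairs of genes that moved together (1) became 31 with no scaling and 0 with median of ratios, both chosen after seeing the data. Over all genes the median log2 fold change moved to 0.53 (Low against Control) and 0.52 (Low against High) on FPKM, to 0.17 and 0.15 on TPM, and with no scaling to 0.14 in High against Control and -0.12 in Low against High, and changes on those scales are relative to it. The cause of these shifts was not tested.

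Signs turned as follows on the log2 scale. In Low against Control on FPKM, Cdkn1a was 0.13, Gadd45a 0.30, Tp53inp1 0.24 and Trim24 0.12, and Tp53inp1 was 0.080 with libraries 56 to 62 as a covariate, 0.058 with them left out and -0.16 to 0.11 with single libraries left out. In High against Control with no scaling, Mdm2 was 0.096, Ccng1 0.032, Gadd45a 0.17 and Sesn2 0.030. There Gadd45a was also 0.023 with median of ratios, 0.012 with the sum without mitochondrial genes, 0.031 on FPKM, 0.035 on TPM and -0.058 to 0.027 with single libraries left out, and Cdkn1a was -0.042 to 0.10. In Low against High on FPKM, Cdkn1a was 0.059, Gadd45a 0.27 and Trim24 0.076, and Sesn1 was -0.13 with no scaling and -0.0051 with median of ratios.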
